A study of Mus musculus with 20 samples.

Results

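Collagen genes were the mouse genes whose symbol has the form Col, a number, the letter a and a number, which took in 44 of the 34234 genes in the deposited table. Of these 44 genes, 30 reached 1 TPM, the deposited unit of transcript share per gene length, in at least 1 of the 20 libraries and are described here, and 14 stayed under it everywhere and are only counted. Just inside that limit were Col24a1, at most 1.11 TPM, and Col6a4, at most 1.12 TPM. Just outside were Col9a2, at most 0.977 TPM, and Col9a3, at most 0.945 TPM. The libraries are bulk total RNA from kidney tumours of the MSRT1 cell line, which the labels give as renal medullary carcinoma, a kidney cancer known for loss of the chromatin remodelling subunit SMARCB1. Each library carries its own number in the labels, taken here as 1 mouse, and the 20 fall into 4 groups of 5. The label numbers of GYY_PD1 library 1 and GYY_IgG library 5 lie far from those of the others, for a reason the labels do not give. Veh_IgG mice had vehicle and control antibody, GYY_IgG mice had GYY4137 and control antibody, Veh_PD1 mice had vehicle and an antibody against PD1, and GYY_PD1 mice had both agents. GYY4137 is a slow-releasing hydrogen sulfide donor and PD1 is an inhibitory receptor of T cells. All 4 groups share the tumour line and site, and the strain, sex, age, dose and schedule are not given in the sources used here.

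Collagens are triple helices of 3 chains, so a collagen type needs the genes of each of its chains. Fibrillar collagens such as types I and III build the fibrils of connective tissue and are mostly made by fibroblasts, while type IV collagens form the sheet-like network of basement membranes under epithelia and around vessels. In the kidney, the COL4A3, COL4A4 and COL4A5 chains assemble into the network of the mature glomerular filter. The other classes make beaded filaments (type VI), short-chain networks (types VIII and X), fibril-associated collagens (FACITs), transmembrane collagens and multiplexins, the heparan sulfate-bearing or chondroitin sulfate-bearing types XVIII and XV of basement membrane zones.

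The type IV genes lie in head-to-head pairs, and in 2 of the pairs both genes start from 1 short stretch of DNA. These stretches are shown because the level ratios below are between the genes that share them. All sequences are from the RefSeq windows for GRCm38.p6, plus strand, 5′ to 3′, and capitals mark a motif match. The 22 bases at chr8:11312805-11312826 are shared by the annotated starts of Col4a1 (minus strand, from chromosome 8 position 11312826) and Col4a2 (plus strand, from 11312805), and their capitals are a GC box. These bases lie within both annotated genes, not before either start.
Col4a1 and Col4a2 shared start: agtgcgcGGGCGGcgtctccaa
The 71 bases at chr1:82586850-82586920 separate the starts of Col4a4 (minus strand, from 82586849) and Col4a3 (plus strand, from 82586921).
Col4a4 to Col4a3: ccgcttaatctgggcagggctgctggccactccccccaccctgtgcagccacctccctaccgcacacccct
Col4a6 and Col4a5 on chromosome X also face away from each other, with 1308 bases between their starts. The window before the start of Col3a1, chr1:45311288-45311537, is shown as that of a fibrillar gene among those that varied most between tumours, and its capitals are a TATA box match that begins 117 bases before the start.
Col3a1 upstream: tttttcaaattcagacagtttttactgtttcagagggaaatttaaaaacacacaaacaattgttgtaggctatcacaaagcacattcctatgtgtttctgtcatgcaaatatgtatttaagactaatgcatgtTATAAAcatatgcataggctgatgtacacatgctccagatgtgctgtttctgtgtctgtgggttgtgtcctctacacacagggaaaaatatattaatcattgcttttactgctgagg
Its GC content of 35.2% was the lowest among the described members with a window, against a median of 52.4% over all windows. In the 250 bases before each start, 3 motifs were searched on both strands, none of which contains another, and a match describes letters only. TATAAA was in 12.4% of all 32851 windows and in a window of 4 of the 25 described members that had one. CCAAT was in 33.9% of all windows and GGGCGG in 32.7%, and they were in a window of 9 and 16 of these 25 members. Members can have more than 1 window, which raises these counts.

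Levels are given as coding TPM, that is, deposited TPM rescaled in each library to the same total over 18041 nuclear protein-coding genes, because those genes held between 2.92% (GYY_PD1 library 4) and 42.9% (Veh_IgG library 1) of deposited TPM. All 5 Veh_IgG libraries but only 3 GYY_IgG, 2 Veh_PD1 and 1 GYY_PD1 library had a coding share of at least 20%, so a difference between groups and a difference in this share cannot be fully told apart. TPM is per transcript length, so levels of different genes can be compared, but it does not keep the number of reads and the depth is unknown. Olfactory and vomeronasal receptor genes, which a tumour should not use, gave a background: their mean ranged from 0.0440 to 1.91 coding TPM, with a median of 0.0599 in Veh_IgG, 0.112 for GYY_IgG, 0.287 for Veh_PD1 and 0.391 for GYY_PD1. GYY_PD1 libraries 1 and 4 stood apart, with 8198 and 6659 genes at 1 TPM against 11517 to 15162 in the others. Smarcb1 was at 35.2 to 109 coding TPM, and whether the tumour cells lack it cannot be told from bulk libraries that also hold host cells. Kidney proximal tubule markers (8 of 8 found) summed to between 2.47 and 480 coding TPM, and 4 of the 8 were listed at 0 in at least 1 library.

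Collagen transcripts as a whole made up between 0.0398% and 0.341% of coding TPM. The sum over the 44 genes ran from 398 coding TPM in Veh_IgG library 2 to 3415 in GYY_PD1 library 3. Col18a1, the chain of collagen XVIII from which endostatin is cut, was the highest member in 17 of the 20 libraries, and Col1a1 in the other 3 (GYY_IgG library 4 and GYY_PD1 libraries 1 and 3). Of the 30 described members, 21 had their highest value in GYY_PD1 library 3, and 11 had their lowest in Veh_IgG library 2. In bulk RNA, fewer cells of a type and less RNA per cell cannot be told apart. Of the 30, 14 lay above the 95th percentile of the receptor genes in every library, and the other 16 were at or below it in at least 1.

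**Figure D1:**
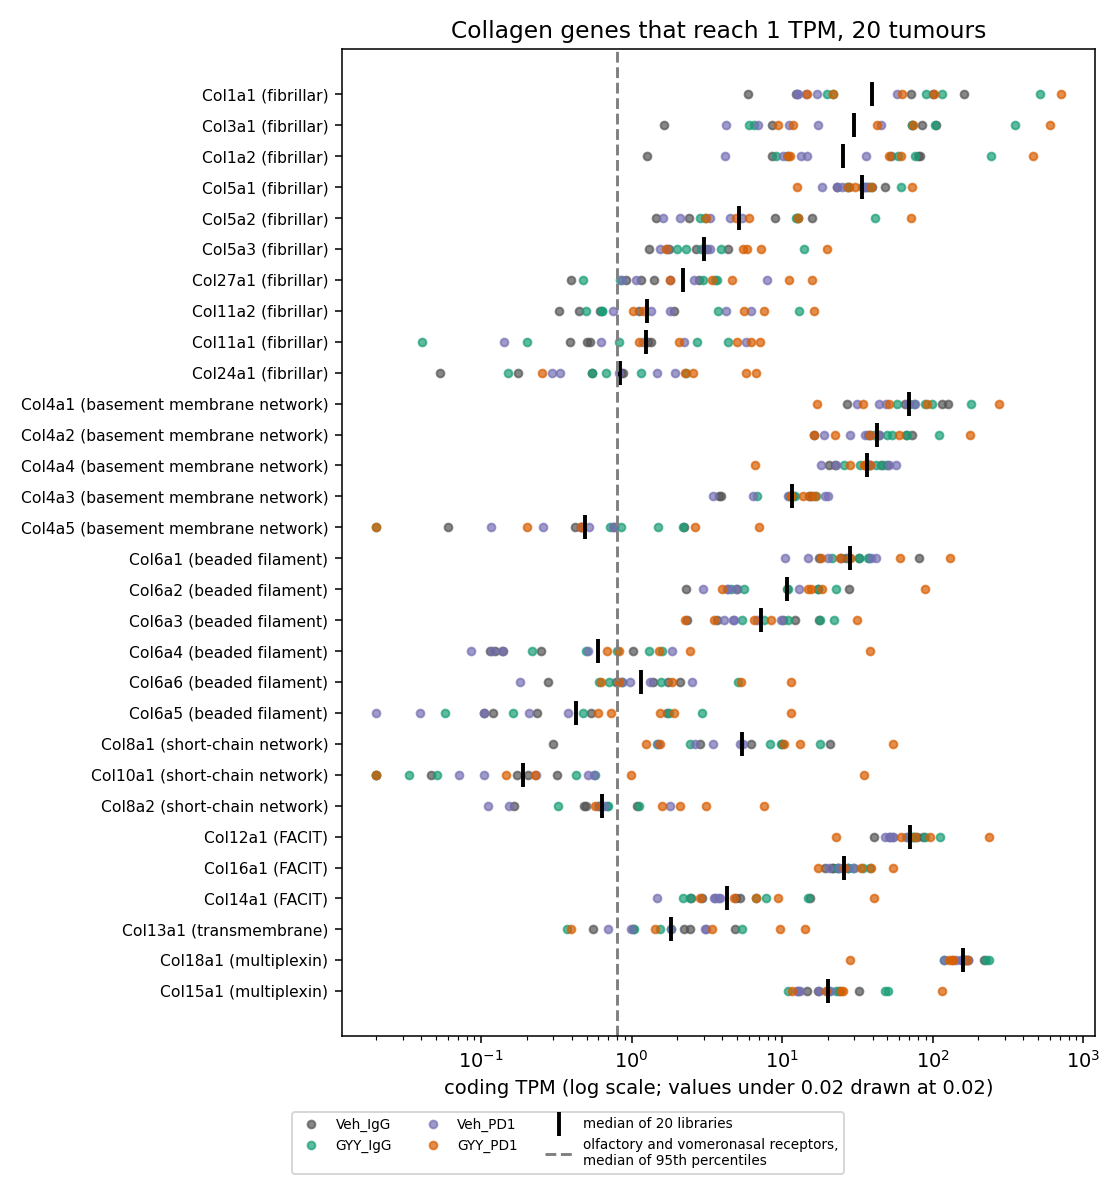
Level of each of the 30 described collagen genes (rows, grouped by class) in the 20 tumours, in coding TPM on a log axis, with points coloured by group, a black tick at the median and a dashed line at the median of the receptor genes' 95th percentiles (0.794 coding TPM). Col18a1 has the highest median, Col1a1, Col1a2 and Col3a1 spread over the widest ranges among the abundant members, and Col10a1 sits left of the line in all but 2 libraries.

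The fibrillar genes summed to between 38.5 coding TPM in Veh_IgG library 2 and 1961 in GYY_PD1 library 3, and took from 9.69% to 63.7% of all collagen transcripts. Col1a1 encodes the alpha 1 chain of type I collagen, the main protein of scar and bone. In libraries 1 to 5 of each group, Col1a1 was at 160.5, 5.89, 12.3, 99.7 and 71.2 coding TPM in Veh_IgG, 21.6, 89.5, 19.8, 520.0 and 116 in GYY_IgG, 14.3, 17.0, 12.4, 57.7 and 12.7 in Veh_PD1 and 62.7, 14.6, 714, 21.6 and 101 in GYY_PD1. Veh_IgG ran from 5.89 to 160.5, GYY_IgG from 19.8 to 520.0 and GYY_PD1 from 14.6 to 714. Of the 5 Veh_PD1 libraries 4 lay between 12.4 and 17.0 and 1 at 57.7, so all groups overlapped. Col3a1 encodes type III collagen of elastic and vascular tissues. The Col3a1 levels in the same library order were 105, 1.63, 8.55, 85.1 and 73.1 coding TPM in Veh_IgG, 6.52, 72.8, 5.98, 352 and 103 in GYY_IgG, 17.2, 11.1, 6.90, 45.2 and 4.19 in Veh_PD1 and 42.4, 11.8, 601, 9.34 and 74.1 in GYY_PD1. GYY_PD1 library 3 and GYY_IgG library 4 were the highest for both genes and Veh_IgG library 2 the lowest, a 121-fold range for Col1a1 and 368-fold for Col3a1. Col1a2, which encodes the partner chain of type I collagen, ran from 1.26 to 462 coding TPM between the same libraries.

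The other fibrillar genes were lower or steadier. Col5a1, a chain of the type V collagen that starts fibrils, ran from 12.5 to 73.0 coding TPM, a 5.86-fold range, whereas its partner Col5a2 ran from 1.45 to 72.2, a 49.9-fold range. Col5a3 ran from 1.30 to 19.7 coding TPM. Col11a1 and Col11a2, the chains of the cartilage fibril collagen XI, had medians of 1.24 and 1.27 coding TPM, and Col24a1 and Col27a1, minor fibrillar chains, 0.840 and 2.19. Col11a2 and Col24a1 were highest in GYY_PD1 library 4, at 16.2 and 6.66 coding TPM, and Col27a1 in GYY_PD1 library 1, at 15.7. Those 2 libraries also had the highest receptor means, 1.82 and 1.91 coding TPM, and the part of that background in these values was not tested. Col2a1, the main cartilage collagen, stayed under 1 TPM as deposited in every library.

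Fibroblast markers were highest in the library with most fibrillar transcripts. All 12 listed markers were found, and they summed to 316 to 754 coding TPM in Veh_IgG, 433 to 776 in GYY_IgG, 287 to 645 in Veh_PD1 and 175 to 2370 in GYY_PD1. In GYY_PD1 library 3, 10 of the 12 markers were highest, among them Dcn, the fibril-binding proteoglycan decorin, at 990.4 coding TPM, and Pdgfra, a fibroblast receptor kinase, at 38.7. The same library had an adipocyte marker sum of 4712 coding TPM against 22.0 to 305 elsewhere, with 6 of 7 adipocyte markers at their highest, including Adipoq at 424. Fbln1, the listed fibroblast marker with the highest median, 272 coding TPM, was highest in Veh_IgG library 1 instead. In Veh_IgG library 2, with the lowest fibrillar sum, Dcn was at 2.17 and Pdgfra at 0.129 coding TPM, and the fibroblast sum was 316. The lowest fibroblast sum, 175, was in GYY_PD1 library 1, where Col1a1 was at 62.7 and the fibrillar sum at 227 coding TPM. GYY_IgG library 4, second in Col1a1, had Dcn at 183 and the second highest fibroblast sum, 776. Of the fibroblast markers 3 were listed at 0 in at least 1 library, Lum among them in Veh_PD1 library 2. The part of these cell types in the collagen levels was not tested. These libraries and genes were chosen after their values were seen.

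**Figure D2:**
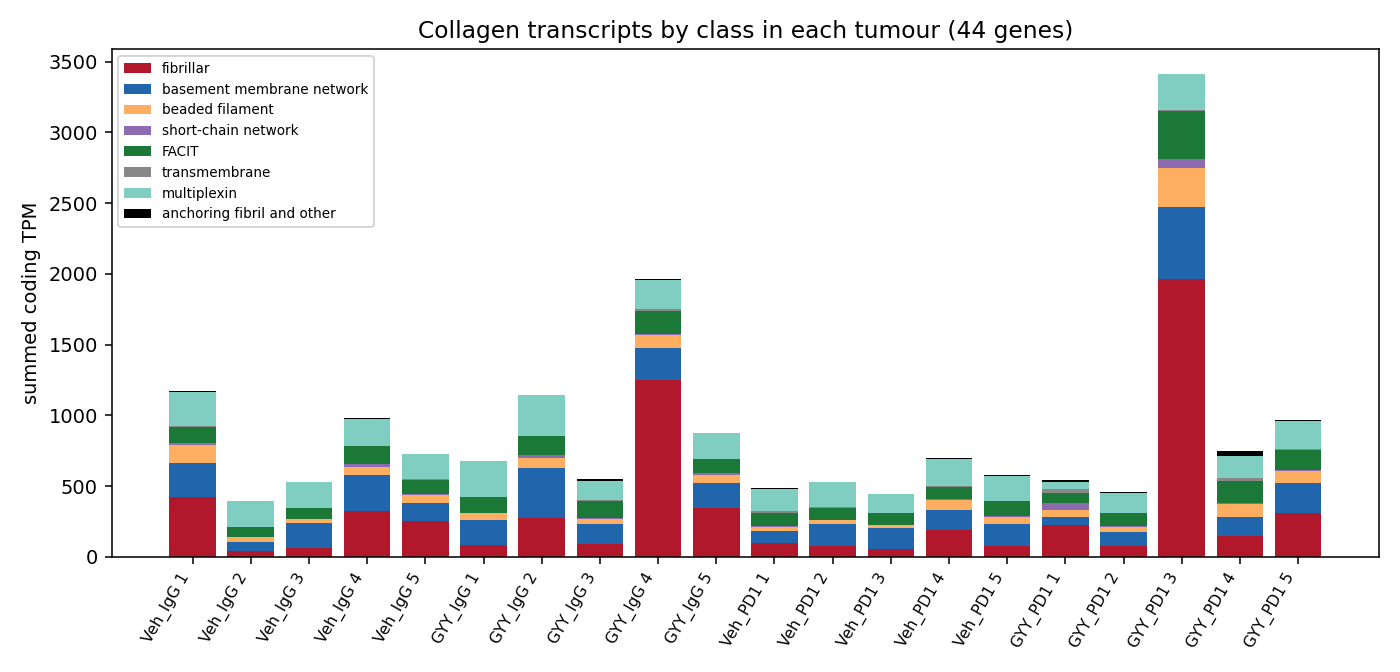
Summed coding TPM of the 44 collagen genes in each tumour (bars, 5 per group), stacked by collagen class from 0. GYY_PD1 library 3 and GYY_IgG library 4 are the tallest bars, at 3415 and 1966 coding TPM, mostly through the fibrillar class (1961 and 1252), while the multiplexin layer keeps a more even height.

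Of the basement membrane genes, Col4a1 and Col4a2 encode the chains of the type IV network found in nearly all basement membranes. Col4a1 measured 115, 26.8, 69.7, 126 and 65.0 coding TPM in Veh_IgG, 88.6, 179.7, 57.7, 99.4 and 75.1 in GYY_IgG, 31.2, 68.6, 43.9, 76.2 and 48.9 in Veh_PD1 and 17.1, 34.4, 277, 51.2 and 91.9 in GYY_PD1. Across libraries 1 to 5, Col4a2 stood at 66.0, 16.3, 43.8, 73.2 and 37.0 coding TPM in Veh_IgG, 54.0, 109, 41.0, 67.0 and 49.96 in GYY_IgG, 18.8, 38.6, 28.3, 44.2 and 35.6 in Veh_PD1 and 16.4, 22.6, 177, 38.2 and 59.7 in GYY_PD1. Both were highest in GYY_PD1 library 3, and the groups overlapped for both. Endothelial markers, 8 of 8 found, were also highest in a GYY_PD1 library, at a sum of 617 coding TPM, with group ranges of 83.3 to 369 in Veh_IgG, 213 to 366 in GYY_IgG, 155 to 281 in Veh_PD1 and 141 to 617 in GYY_PD1. The type IV class as a whole took 10.4% to 33.4% of collagen transcripts. The annotated Col4a1 and Col4a2 genes overlap by 22 bases and each has an overlapping antisense gene (Gm15418 and Gm15419). Whether the counting used strand is not given in the sources used here, and without strand, reads from overlapping genes cannot be told apart.

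Col4a3 and Col4a4, whose proteins belong to the glomerular network, were abundant, whereas the remaining chain of that network was not. These genes were chosen after their values were seen. In libraries 1 to 5 of each group, Col4a4 was at 49.8, 20.4, 45.3, 37.7 and 22.3 coding TPM in Veh_IgG, 25.7, 46.7, 33.0, 42.1 and 37.2 in GYY_IgG, 22.7, 38.4, 57.2, 18.1 and 51.5 in Veh_PD1 and 6.62, 34.8, 35.5, 28.4 and 38.4 in GYY_PD1. The Col4a3 levels in the same library order were 11.8, 3.91, 14.9, 15.6 and 3.80 coding TPM in Veh_IgG, 6.80, 16.7, 11.4, 11.1 and 12.1 in GYY_IgG, 6.41, 10.9, 19.2, 3.45 and 20.2 in Veh_PD1 and 11.5, 11.5, 16.4, 13.8 and 15.2 in GYY_PD1. Veh_PD1 libraries 3 and 5 were highest for both, and GYY_PD1 library 3, the highest for so many other members, was not. Col4a5 had a median of 0.489 coding TPM, was listed at 0 in 2 libraries and lay above the receptor percentile in 9 of 20. Its highest value was 6.97 in GYY_PD1 library 3. Col4a4 exceeded Col4a5 at least 5.09-fold in each of the 18 libraries where Col4a5 was above 0, with a median ratio of 57.1. Col4a6 stayed under 1 TPM as deposited.

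Markers of podocytes, the glomerular cells that make this network, were set beside those values. Wt1, a transcription factor, and Synpo, which encodes synaptopodin, had medians of 15.2 and 47.6 coding TPM and lay above the receptor percentile in all 20 libraries. Podxl, which encodes podocalyxin, and Ptpro, a receptor phosphatase, had medians of 19.95 and 7.99 coding TPM and lay above it in 19. Nphs1, which encodes nephrin, had a median of 1.17 coding TPM and lay above it in 9. The part of podocytes in these levels was not tested. The antisense-strand gene C430014B12Rik covers 30132 bases of Col4a3.

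Type VI genes form the beaded microfilaments around cells and near basement membranes. Col6a1 measured 81.6, 26.3, 17.6, 32.3 and 24.5 coding TPM in Veh_IgG, 32.3, 36.9, 21.3, 37.8 and 28.2 in GYY_IgG, 20.1, 14.8, 10.4, 41.8 and 38.6 in Veh_PD1 and 18.01, 24.3, 130.5, 28.1 and 60.2 in GYY_PD1. Across libraries 1 to 5, Col6a2 stood at 27.6, 2.31, 5.00, 10.7 and 17.2 coding TPM in Veh_IgG, 4.53, 10.9, 5.55, 22.6 and 17.4 in GYY_IgG, 4.34, 4.93, 2.98, 12.9 and 4.32 in Veh_PD1 and 18.5, 4.00, 89.3, 15.6 and 14.9 in GYY_PD1. Col6a1 varied 12.5-fold and Col6a2 38.7-fold over the 20 libraries, both with GYY_PD1 library 3 on top and with overlapping groups. Col6a3, the largest chain, ran from 2.27 to 31.5 coding TPM. The alternative chains Col6a4, Col6a5 and Col6a6 were near background, with medians of 0.600, 0.427 and 1.15 coding TPM. Col6a4 reached 38.3 coding TPM in GYY_PD1 library 4 alone, against at most 2.42 in the other 19, and that value was 1.12 TPM as deposited.

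Among the short-chain genes, Col8a1, a chain of vessel wall and corneal networks, was the main member. In libraries 1 to 5 of each group, Col8a1 was at 9.95, 0.299, 2.82, 20.7 and 6.20 coding TPM in Veh_IgG, 2.45, 17.9, 1.47, 9.79 and 8.25 in GYY_IgG, 5.21, 3.47, 2.61, 5.51 and 1.48 in Veh_PD1 and 13.1, 1.24, 54.3, 1.54 and 10.3 in GYY_PD1. Every group overlapped every other, and GYY_PD1 library 3 was 182 times as high as Veh_IgG library 2. Col8a2, its partner, had a median of 0.637 coding TPM. Col10a1, the collagen of growth plate cartilage, was at 34.8 coding TPM in GYY_PD1 library 1 and at most 0.989 in any other library. As deposited that value was 1.52 TPM, and the gene lies within Nt5dc1 on the other strand.

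Among the FACITs, Col12a1 binds the surface of type I fibrils in dense connective tissue. The Col12a1 levels in the same library order were 86.0, 40.9, 51.6, 78.6 and 71.8 coding TPM in Veh_IgG, 73.9, 89.0, 75.0, 112 and 68.5 in GYY_IgG, 48.3, 54.3, 54.5, 50.8 and 66.7 in Veh_PD1 and 22.7, 61.9, 236, 76.7 and 95.7 in GYY_PD1. Apart from GYY_PD1 libraries 1 and 3 the values lay between 40.9 and 112, a narrower band than for Col1a1. Col16a1, another fibril-associated chain, varied least of the 30 members, from 17.3 to 54.5 coding TPM (3.15-fold). Col14a1 had a median of 4.32 coding TPM and reached 40.5 in GYY_PD1 library 3. None of the other 6 FACIT genes reached 1 TPM as deposited.

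The multiplexin Col18a1 was not only the highest but among the steadiest collagen genes. Col18a1 measured 218, 165, 171, 157 and 165 coding TPM in Veh_IgG, 226, 236, 119, 158 and 161 in GYY_IgG, 142, 155, 119, 173 and 159 in Veh_PD1 and 28.0, 129, 135, 136 and 169 in GYY_PD1. Without GYY_PD1 library 1 the range was 119 to 236 coding TPM, and GYY_PD1 library 3, the outlying library for the fibrillar genes, was at 135. Col15a1, the other multiplexin, ran from 10.9 to 116 coding TPM and was highest in GYY_PD1 library 3. Slc19a1 overlaps Col18a1 over 8825 bases on the other strand. Of the 4 transmembrane collagens, Col13a1 alone reached 1 TPM as deposited, and it did so in 1 library. Across libraries 1 to 5, Col13a1 stood at 4.82, 2.22, 0.552, 1.02 and 2.44 coding TPM in Veh_IgG, 0.371, 1.03, 1.53, 5.39 and 1.83 in GYY_IgG, 3.09, 0.694, 0.995, 3.13 and 1.83 in Veh_PD1 and 14.2, 0.395, 1.42, 9.61 and 3.43 in GYY_PD1. Its highest values were in GYY_PD1 libraries 1 and 4, where the receptor background was highest too.

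**Figure D3:**
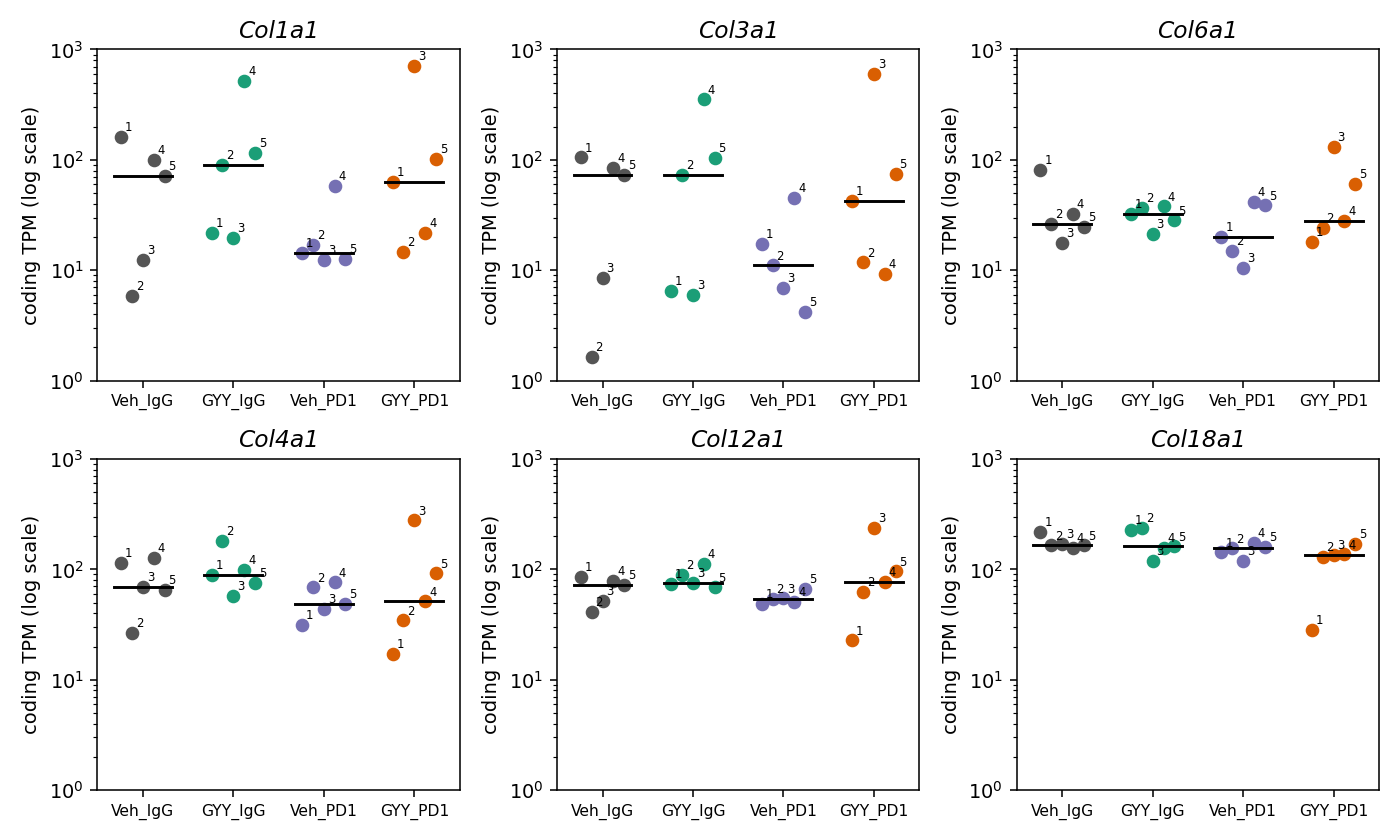
Coding TPM on a log axis of Col1a1, Col3a1, Col6a1, Col4a1, Col12a1 and Col18a1 in each tumour, by group, with library numbers beside the points and a line at each group's median. Groups overlap in every panel. Col1a1 spans 121-fold and Col3a1 368-fold, and Col18a1 lies between 119 and 236 except for 28.0 in GYY_PD1 library 1.

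Ratios between pairs of members were steadier in some cases than in others. Col4a1 exceeded Col4a2 in all 20 libraries, with a median ratio of 1.58 and a range of 1.04 to 1.78, the narrowest of the 10 ratios computed (SD 0.18 on the log2 scale). Col1a1 exceeded Col1a2 in 19 of 20 libraries, with a median of 1.54 and a range of 0.973 to 4.66, where a type I molecule holds a pair of alpha 1 chains and a single alpha 2 chain. Col4a4 to Col4a3 had a median of 3.03 and was below 1 only in GYY_PD1 library 1, at 0.576. Col5a1 to Col5a2 ranged most among the fibrillar pairs, from 1.01 in GYY_PD1 library 3 to 17.0 in Veh_PD1 library 5. Col6a1 to Col6a2 had a median of 3.31 and Col6a1 to Col6a3 a median of 4.19, and both were highest in Veh_IgG library 2, at 11.4. Col15a1 to Col18a1 had a median of 0.116 and was highest in GYY_PD1 library 3, at 0.857. The ratios share the numerator gene in some cases and every library, so they are given as a description.

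**Figure D4:**
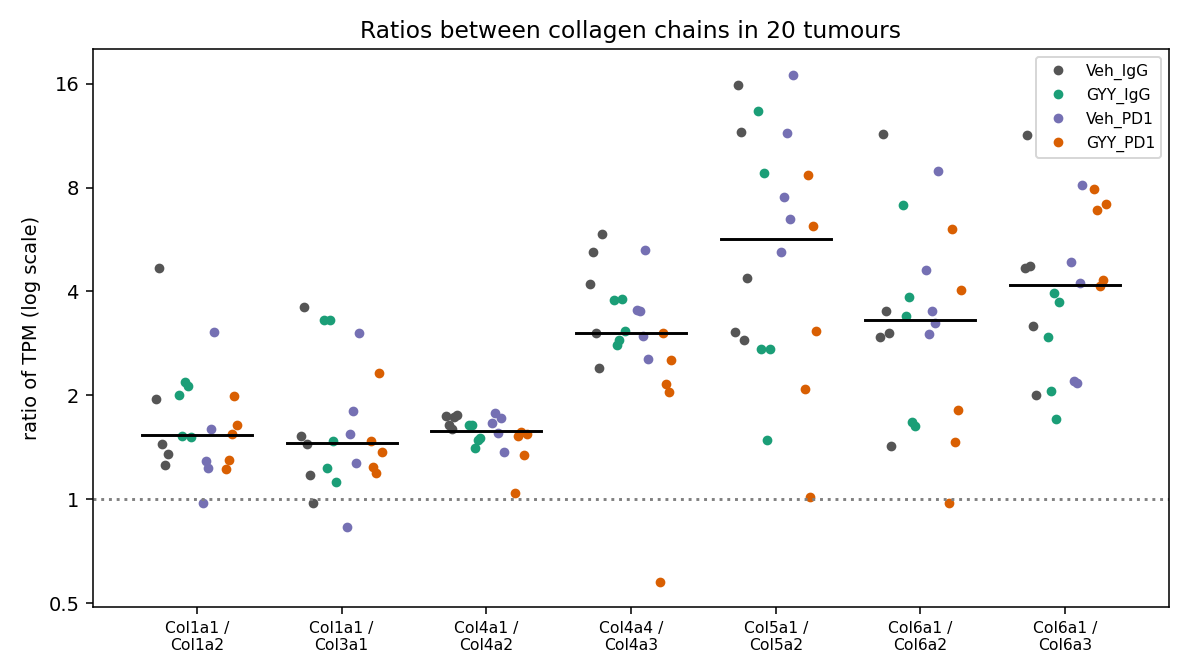
Ratio of TPM between 7 pairs of collagen genes in each tumour on a log axis, with points coloured by group, a line at the median of 20 libraries and a dotted line at a ratio of 1. The Col4a1 to Col4a2 points lie between 1.04 and 1.78, while the Col5a1 to Col5a2 points spread from 1.01 to 17.0.

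The tumours with most Col1a1 were also those with most of several other members. Of the 5 libraries with the highest Col1a1, 4 were among the 5 highest for Col1a2, Col3a1, Col5a1, Col5a2, Col6a2 and Col12a1, and 3 for Col4a1, Col4a2, Col6a1, Col6a3 and Col15a1. For Col8a1, Col14a1 and Col16a1 it was 2 libraries, and for Col18a1, Col4a3 and Col4a4 it was 1 library. All these genes come from the same libraries and share their depth and coding share, so the overlap is a description with no test.

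The groups were compared with limma on log2(coding TPM + 1), with 1 model of the 4 groups, and p-values were adjusted by Benjamini-Hochberg over all 15869 tested genes. Of the collagen genes, 42 were tested, among them 29 of the 30 described (Col10a1 was too low). With a threshold of adjusted p under 0.05, no collagen gene passed in any of the 8 comparisons. A difference is on this log2 scale throughout and understates the change of low genes. The p-values measure the spread between libraries titled as biological replicates. The 5 comparisons of group pairs share groups, so they are not independent of each other.

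GYY4137 alone was compared with vehicle under control antibody. No collagen gene and 0% of all tested genes passed the threshold in GYY_IgG minus Veh_IgG, and no described member had an unadjusted p under 0.05, against 0.498% of all genes. Among the 29 described members, 27 were higher and 2 lower in GYY_IgG, with a median difference of 0.35 against 0.08 for all tested genes. The fibrillar genes had a median difference of 0.51 (all 10 higher) and the type IV genes 0.35 (all 5 higher). The smallest p belonged to Col16a1, with a difference of 0.41 ± 0.24 (SE, limma adjusted p = 1.00), followed by Col11a2 with 0.76 ± 0.63 (SE, limma adjusted p = 1.00) and Col4a2 with 0.52 ± 0.49 (SE, limma adjusted p = 1.00). Without GYY_IgG library 4 the median of the 29 was 0.08 (21 higher), against 0.07 for all genes, and without Veh_IgG library 2 it was 0.14 (19 higher). Without the libraries under 20% coding share, an alternative chosen after seeing the data, it was 0.20 (23 higher). Fibroblast markers had a median difference of 0.09 (7 of 12 higher) and adipocyte markers 0.49 (6 of 6 higher), none past the threshold. With the TPM as deposited, 14 of the 29 were higher and 15 lower, and all genes had a median of -0.36.

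Anti-PD1 alone was compared with control antibody under vehicle. In Veh_PD1 minus Veh_IgG the threshold was passed by no collagen gene and by 0% of all tested genes. Of the 29 described members 9 were higher and 20 lower in Veh_PD1, with a median of -0.23 against 0.01 for all genes, and none had an unadjusted p under 0.05 (1.2% of all genes did). Col1a1 differed by -1.04 ± 1.02 (SE, limma adjusted p = 1.00) and Col3a1 by -1.07 ± 1.22 (SE, limma adjusted p = 1.00), differences about as large as their standard errors. The smallest p-values were those of Col11a2, 0.90 ± 0.63 (SE, limma adjusted p = 1.00), Col6a2, -0.74 ± 0.65 (SE, limma adjusted p = 1.00), and Col5a2, -0.80 ± 0.74 (SE, limma adjusted p = 1.00). Without Veh_IgG library 1 the median of the 29 was -0.13, without Veh_IgG library 4 -0.14 and without Veh_IgG library 2 -0.37, and it was also -0.37 without the libraries under 20% coding share. With the TPM as deposited, 2 of the 29 were higher and 27 lower. Fibroblast markers had a median difference of -0.36 (2 of 12 higher, none past the threshold).

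The combination was compared with neither agent. The threshold was passed in GYY_PD1 minus Veh_IgG by no collagen gene and by 0% of all tested genes, where the smallest adjusted p by limma was 0.107 among the described members. At an unadjusted p under 0.05 there were 9 of the 29 described members, 8 higher and 1 lower, and 23.2% of all tested genes. Of the 29, 24 were higher and 5 lower, with a median of 0.63 against -0.08 for all genes, and the groups overlapped for each of them, while 6.06% of all genes had groups that did not. Col27a1 differed by 1.61 ± 0.51 (SE, limma adjusted p = 0.107), Col24a1 by 1.36 ± 0.44 (SE, limma adjusted p = 0.107) and Col8a2 by 1.13 ± 0.38 (SE, limma adjusted p = 0.118). These 3 are low-level genes, with medians over the 20 libraries of 2.19, 0.840 and 0.637 coding TPM. The member lower at unadjusted p under 0.05 was Col18a1, with -0.75 ± 0.34 (SE, limma adjusted p = 0.2), and it was named after its values were seen. Col18a1 was at 28.0 coding TPM in GYY_PD1 library 1 and at 129 to 169 in the other GYY_PD1 libraries, against 157 to 218 in Veh_IgG.

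The direction of that combined comparison rested on which libraries were kept. A fit without the libraries under 20% coding share leaves 1 GYY_PD1 library, library 2, assumed to vary like the others. That library had the lowest collagen sum of its group, 458 coding TPM. It alone stands for GYY_PD1 in every fit given here without the libraries under 20% coding share. In the combined comparison this fit had 9 of the 29 higher and 20 lower, with a median of -0.38. Without GYY_PD1 library 3 it was 16 higher and 13 lower, with a median of 0.10. The median was 0.36 without Veh_IgG library 2 and 1.00 without GYY_PD1 library 2. GYY_PD1 libraries 1 and 4 had the highest receptor background. Without these libraries 27 of the 29 were higher and 2 lower, with a median of 0.76. Without GYY_PD1 library 1 alone, 28 were higher and 1 lower, with a median of 0.69. In the fit without GYY_PD1 library 2, 8 collagen genes passed the threshold (Col22a1, Col23a1, Col24a1, Col27a1, Col2a1, Col7a1, Col8a2 and Col9a3), 5 of them never at 1 TPM as deposited, together with 799 of all tested genes. On the deposited scale 3 collagen genes passed as lower (Col18a1, Col4a4 and Col5a1), together with 9801 of all tested genes, whose median there was -1.89, and 7 of the 29 were higher and 22 lower. With all libraries kept, fibroblast markers had a median difference of 0.45 (8 of 12 higher) and adipocyte markers 2.39 (6 of 6 higher), none past the threshold.

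GYY4137 was also compared with vehicle in mice given anti-PD1. No collagen gene and 0% of all tested genes passed the threshold in GYY_PD1 minus Veh_PD1, while 8 of the 29 described members, all higher, had an unadjusted p under 0.05 against 12.7% of all genes. Of the 29, 27 were higher, with a median of 0.84 against -0.07. The fibrillar genes had a median of 1.07 (all 10 higher), the type VI genes 1.12 (all 6 higher) and the short-chain genes 1.05 (2 of 2 higher). Fibroblast markers had a median of 0.87 (9 of 12 higher) and adipocyte markers 2.35 (6 of 6 higher) in the same comparison, none past the threshold, and their part in the collagen differences was not tested. Col8a2 differed by 1.11 ± 0.38 (SE, limma adjusted p = 0.378), Col6a5 by 1.41 ± 0.49 (SE, limma adjusted p = 0.378) and Col6a2 by 1.59 ± 0.65 (SE, limma adjusted p = 0.378). Col6a5 was the only described member whose groups did not overlap, where 0.926% of all genes did not. It was at 1.53, 0.596, 11.5, 1.89 and 0.722 coding TPM in GYY_PD1 and at 0.379, 0.0393, 0.206, 0.104 and 0 in Veh_PD1, and the receptor 95th percentile was 0.974 to 7.57 in GYY_PD1. Col1a1 differed by 1.82 ± 1.02 (SE, limma adjusted p = 0.396) and Col3a1 by 1.86 ± 1.22 (SE, limma adjusted p = 0.424). Without the libraries under 20% coding share 16 of the 29 were higher and 13 lower, with a median of 0.03, and with the TPM as deposited it was 15 and 14.

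Anti-PD1 was compared with control antibody in mice given GYY4137. In GYY_PD1 minus GYY_IgG, too, 0% of all tested genes and no collagen gene passed. Unadjusted p-values under 0.05 were found for 5 of the 29 described members and 13.9% of all genes. Of the 29, 21 were higher, with a median of 0.25 against -0.13, and the type IV genes had a median of -0.47 (2 of 5 higher). Col8a2 differed by 1.02 ± 0.38 (SE, limma adjusted p = 0.341), Col24a1 by 1.03 ± 0.44 (SE, limma adjusted p = 0.341) and Col27a1 by 1.18 ± 0.51 (SE, limma adjusted p = 0.341). Without GYY_PD1 library 3, 12 of the 29 were higher and 17 lower, with a median of -0.13, and without the libraries under 20% coding share it was 7 and 22, with a median of -0.40. The median was 0.09 without GYY_IgG library 1, 0.16 without GYY_IgG library 3, 0.39 without GYY_IgG library 2, 0.61 without GYY_IgG library 4 and 0.62 without GYY_PD1 library 2. With the TPM as deposited, 6 of the 29 were higher and 23 lower.

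**Figure D5:**
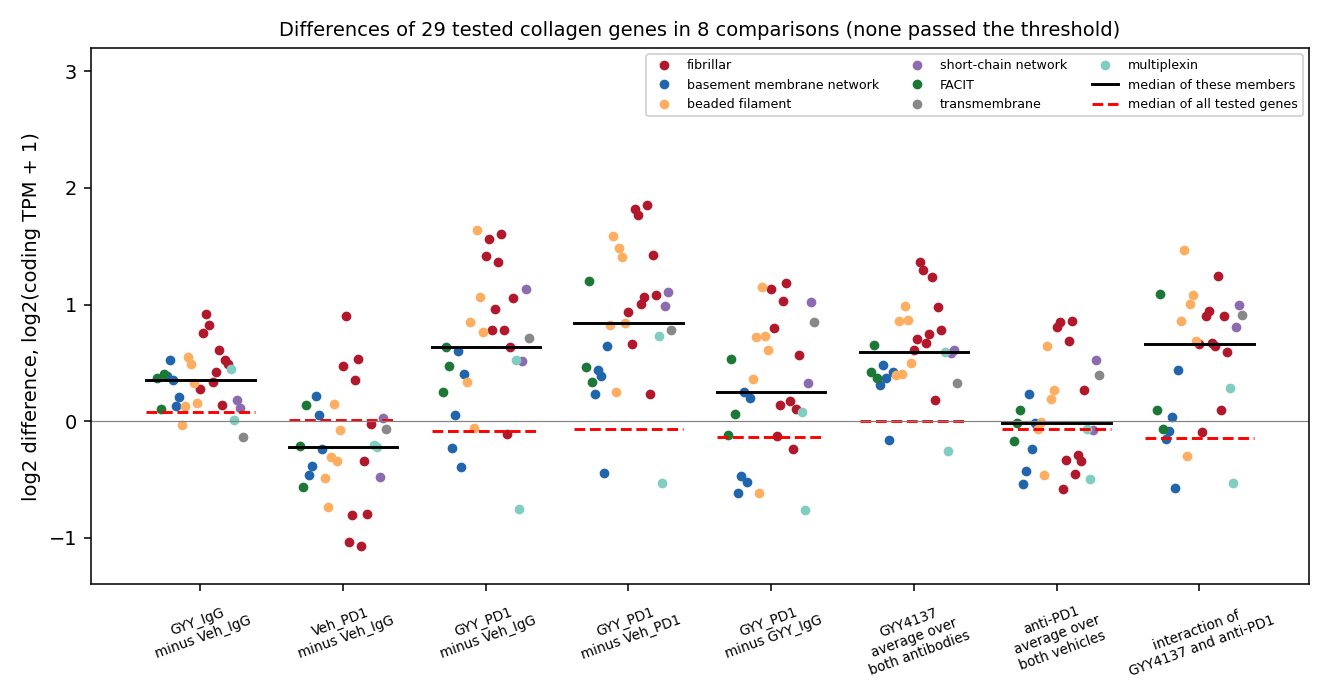
Difference of each of the 29 tested and described collagen genes in the 8 comparisons, on the log2(coding TPM + 1) scale, coloured by class, with a black line at their median and a red dashed line at the median of all 15869 tested genes. The fibrillar class has its highest median in GYY_PD1 minus Veh_PD1, 1.07, beside 1.12 for the beaded filament class there. The members' median in that column is 0.84, and no gene passed the threshold in any column.

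Averages over the other treatment and their interaction used all 20 libraries. No collagen gene and 0% of all tested genes passed the threshold for GYY4137 averaged over both antibodies, where 27 of the 29 described members were higher, with a median of 0.59 against 0.003 for all genes, and 6 had an unadjusted p under 0.05 (8.51% of all genes did). Col6a5 differed by 0.87 ± 0.35 (SE, limma adjusted p = 0.572), Col5a3 by 0.78 ± 0.33 (SE, limma adjusted p = 0.572) and Col6a4 by 0.99 ± 0.44 (SE, limma adjusted p = 0.572). Among the more abundant members, Col1a1 differed by 1.37 ± 0.72 (SE, limma adjusted p = 0.572), and Col18a1 by -0.26 ± 0.24 (SE, limma adjusted p = 0.67). Without the libraries under 20% coding share the 29 had a median of 0.08, with 20 higher and 9 lower, and without GYY_PD1 library 3 it was 0.38, with 27 higher. With the TPM as deposited, 16 were higher and 13 lower. Fibroblast markers had a median of 0.61 (10 of 12 higher) and adipocyte markers 1.48 (6 of 6 higher), none past the threshold.

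For anti-PD1 averaged over both vehicles, no collagen gene and 0% of all tested genes passed, and 3 of the 29 described members had an unadjusted p under 0.05 against 11.5% of all genes. Of the 29, 12 were higher and 17 lower, with a median of -0.02 against -0.07. That median had no steady direction: leaving out 1 library at a time gave -0.28 (without GYY_PD1 library 3) to 0.14 (without GYY_PD1 library 2), and it was above 0 without Veh_IgG library 1 or 4, GYY_IgG library 2 or 4, Veh_PD1 library 5 or GYY_PD1 library 1, 2 or 5. Without the libraries under 20% coding share, 6 of the 29 were higher and 23 lower, with a median of -0.50 against -0.01 for all genes. With the TPM as deposited it was 4 and 25. Col27a1 differed by 0.86 ± 0.36 (SE, limma adjusted p = 0.42), Col24a1 by 0.69 ± 0.31 (SE, limma adjusted p = 0.427) and Col11a1 by 0.80 ± 0.37 (SE, limma adjusted p = 0.428). The interaction asked whether the effect of GYY4137 differed with the antibody. It was passed by no collagen gene and by 0% of all tested genes, and no described member had an unadjusted p under 0.05 (1.48% of all genes did). Its members' median was 0.66 against -0.15, with the smallest p-values for Col8a2, 1.00 ± 0.54 (SE, limma adjusted p = 0.862), Col6a2, 1.47 ± 0.92 (SE, limma adjusted p = 0.862), and Col6a5, 1.08 ± 0.70 (SE, limma adjusted p = 0.862). Without the libraries under 20% coding share the interaction had 11 of the 29 higher and 18 lower, with a median of -0.08. Without GYY_PD1 library 3 it had 18 higher and 11 lower, with a median of 0.21, and the median was 0.41 without GYY_IgG library 1 and 0.43 without GYY_PD1 library 4. With the TPM as deposited, 18 were higher and 11 lower.

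Some of the members named for the smallest p-values were near the background of the receptor genes, and others were not. Col6a5, Col6a4, Col8a2, Col24a1 and Col11a1 lay above the receptor 95th percentile in 5, 7, 8, 11 and 14 of 20 libraries. Col5a2 and Col5a3 lay above it in 18, Col27a1 in 19, and Col4a2, Col6a2, Col11a2 and Col16a1 in all 20. The 14 described members above the receptor 95th percentile in every library had a median difference of 0.50 in GYY_PD1 minus Veh_IgG, with 11 higher, and 2 of them, Col11a2 and Col18a1, had an unadjusted p under 0.05, against 23.2% of all tested genes. The 14 passed that filter on all 20 libraries and are given as a description. The receptor background and the low-level members were both highest in GYY_PD1, and the part of the background in their differences was not tested beyond the fits named above.

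Genes that act on collagen were read from 5 lists, and none of their genes passed the threshold in any comparison. Of the 30 enzymes and chaperones that fold, trim and cross-link collagen, 30 were tested. In GYY_PD1 minus Veh_IgG, 16 were higher and 14 lower, with a median of 0.20 against -0.08 for all genes and 9 at an unadjusted p under 0.05, against 23.2% of all genes. The smallest p-values were those of P4ha3, a prolyl hydroxylase subunit, with 1.67 ± 0.53 (SE, limma adjusted p = 0.104), Adamts14, a procollagen N-proteinase, with 1.33 ± 0.43 (SE, limma adjusted p = 0.108), P3h3, a prolyl 3-hydroxylase family member, with 1.34 ± 0.45 (SE, limma adjusted p = 0.118), and Adamts3, another N-proteinase, with 1.17 ± 0.43 (SE, limma adjusted p = 0.139). P4ha3 and P3h3 lay above the receptor 95th percentile in 18 of 20 libraries, Adamts3 in 11 and Adamts14 in 9. P4ha3 was highest in GYY_PD1 library 1, and Adamts14 and Adamts3 in GYY_PD1 library 4. The part of the background in these differences was not tested. The summed level of this list was even, at 2793 to 3610.7 coding TPM in all groups except GYY_PD1. There it was 1069.9 in library 1 and 3335 to 4151 in the other libraries.

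Collagen receptors had 10 of 11 listed genes tested, 5 higher and 5 lower in GYY_PD1 minus Veh_IgG, with a median of -0.15. Their smallest p-values were those of Itga11, the alpha chain of a fibrillar collagen integrin, with 1.42 ± 0.45 (SE, limma adjusted p = 0.104), Itga10 with 0.61 ± 0.30 (SE, limma adjusted p = 0.224), the endocytic receptor Mrc2 with 1.12 ± 0.59 (SE, limma adjusted p = 0.241) and the inhibitory leukocyte receptor Lair1 with 0.79 ± 0.42 (SE, limma adjusted p = 0.246). Itga11 lay above the 95th percentile of the olfactory and vomeronasal receptor genes in 7 of 20 libraries, Itga10 in 9, Mrc2 in 15 and Lair1 in 19. Collagen-degrading proteases had 8 of 9 tested, 7 higher and 1 lower, with a median of 0.57. They were led by Mmp16 with 1.71 ± 0.53 (SE, limma adjusted p = 0.103), Mmp13, a collagenase, with 0.93 ± 0.40 (SE, limma adjusted p = 0.178), Mmp9, a gelatinase, with 1.01 ± 0.55 (SE, limma adjusted p = 0.251) and Mmp14, a membrane-bound collagenase, with 0.52 ± 0.47 (SE, limma adjusted p = 0.434). Mmp16 had a median of 0.687 coding TPM and was highest in GYY_PD1 library 1, at 19.5. It lay above that percentile in 5 of 20 libraries, Mmp9 in 19, and Mmp13 and Mmp14 in all 20. The part of the background in these differences was not tested.

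Matrix partners, the proteoglycans, laminins and adhesive proteins that bind collagen, had 25 of 25 tested, 20 higher and 5 lower in GYY_PD1 minus Veh_IgG with a median of 0.31, and 3 higher and 22 lower in Veh_PD1 minus Veh_IgG with a median of -0.37. The smallest p-values in the former were those of Comp, a cartilage matrix protein, with 1.86 ± 0.53 (SE, limma adjusted p = 0.102), the thrombospondins Thbs1 with 1.01 ± 0.60 (SE, limma adjusted p = 0.282) and Thbs2 with 1.29 ± 0.77 (SE, limma adjusted p = 0.284), and Fmod, fibromodulin, with 0.85 ± 0.63 (SE, limma adjusted p = 0.353). Comp was highest in GYY_PD1 library 1, and Thbs1, Thbs2 and Fmod in GYY_PD1 library 3. The summed level of this list was 6281 coding TPM in GYY_PD1 library 3 and 603 to 1818 in the other GYY_PD1 libraries, against 864 to 2126 in Veh_IgG. Comp and Thbs2 lay above the receptor 95th percentile in 16 of 20 libraries, Fmod in 17 and Thbs1 in all 20. Regulators of collagen genes, such as TGF-beta ligands and SMADs, had 18 of 20 tested, 10 higher and 8 lower, with a median of 0.07. Twist1, a mesenchymal transcription factor, differed by 1.78 ± 0.59 (SE, limma adjusted p = 0.114), Creb3l1 by 1.36 ± 0.55 (SE, limma adjusted p = 0.163), Il13ra2 by 1.05 ± 0.51 (SE, limma adjusted p = 0.22) and Pdgfa by 0.42 ± 0.27 (SE, limma adjusted p = 0.31). These regulators lay above the receptor 95th percentile in all 20 libraries. Twist1 was highest in GYY_PD1 library 4, Creb3l1 in library 3, and Il13ra2 and Pdgfa in library 1 of the same group.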

How the data were processed

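Bulk RNA-seq was measured in 20 tumours, 1 library per mouse. The authors deposited log2 TPM without a constant, with 0 TPM written as -8.88, per the values of the file. The submitters' processing notes list Salmon 0.14.1 and HTSeq 0.11.0 beside cutadapt, fastp and the build mm10, without saying which made the TPM or whether genes were filtered. Positions come from GENCODE M21 and RefSeq on the same build. Levels were raised back, rescaled to coding genes (named without mitochondrial, receptor and Gm-numbered genes) and logged with 1 added. Genes with at least 1 coding TPM in at least 5 libraries entered 1 limma model (version 3.58.1, R 4.3.3, trended variance, 16 residual degrees of freedom). Values in every library are given for the 2 members per class with the highest mean (1 in small classes), and each comparison names the 3 described members with the smallest p. Other scalings, pseudocounts (0.1 and 5), filters, covariates, weights, blocks and left-out libraries were tried as alternatives. The members and lists were chosen with earlier results of these data known. In a test on simulated data for GYY_PD1 minus Veh_IgG over 15869 genes, 31 of 50 genes changed by 1 on the log2 scale were called, 44 of 50 at 2, 46 of 50 at 3 and 49 of 50 at 4, with 10 false calls. The simulation drew independent noise with 1 spread per gene over all 4 groups. Changes were placed only in genes with a mean log2 level above 2. Col1a1 and Col3a1 had within-group SDs of 1.81 and 2.17 on that scale, so these shares need not hold for collagen genes. A kidney marker gene is not reported here.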

Additional observations from a re-analysis of the deposited data

Results flagged for a closer look

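In 5 of 76 sets of 5 libraries examined (19 genes or class sums in 4 groups), 1 library lay far from the rest of its group, with the gap to its neighbour as a share of the group's range above 0.71 on the log2 scale. Chance alone flags about 1 group in 20. Col18a1 was high in Veh_IgG library 1 (218 coding TPM against 157 to 171 in the other 4, share 0.738) and low in GYY_PD1 library 1 (28.0 against 129 to 169, share 0.848). Col1a1 was high in Veh_PD1 library 4 (57.7 against 12.4 to 17.0, share 0.801). The summed multiplexin level was high in Veh_IgG library 1 (242 against 178 to 189, share 0.797), which Col18a1 dominates. The summed type IV level was low in Veh_PD1 library 1 (80.5 against 144 to 158, share 0.856).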

How the results depend on the processing

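No collagen gene passed the threshold under the main settings, and this held in all 8 comparisons under every alternative except in GYY_PD1 minus Veh_IgG. There the count was 3 on the deposited log2 TPM scale, and leaving out 1 library at a time gave 0 to 8, the 8 without GYY_PD1 library 2; the cause was not tested. Over all 15869 tested genes the count in that comparison was 0, but 64 with library weights and 127 without the libraries under 20% coding share, with no collagen gene among them. Directions of named members turned in 6 cases. Col16a1 in GYY_IgG minus Veh_IgG was -0.017 on the deposited scale. Col11a2 was -0.19 in the same comparison without the libraries under 20% coding share and -0.015 in Veh_PD1 minus Veh_IgG with coding share as a covariate. Col24a1 without those libraries was -0.22 in GYY_PD1 minus Veh_IgG, -0.20 in GYY_PD1 minus GYY_IgG and -0.18 for the anti-PD1 average. For these too the cause was not tested. The replicate block gave 0 collagen genes in all 8 comparisons. Same-numbered libraries did not deviate together: over 30 pairs the correlation of their deviations ran from -0.429 to 0.428 (median 0.07), 13 pairs were over 0.1, and 3 of 20 libraries correlated best with their own number. Depth is unknown, so low members cannot be set against a counting limit.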
